A study of Homo sapiens with 6 samples.

Results

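The liver and endoderm genes described here are 34 genes known as endoderm factors or as hepatocyte genes whose chromatin FOXA factors open in the liver. The rule goes by gene name, but the names were put together with earlier results of these data known. Each gene was found through the array annotation, by probe sets that carry its symbol and no other. All 34 were measured, by 80 probe sets in total, among 19775 genes read in the same way. The genes fall into 7 endoderm factors, 6 liver transcription factors, 10 secreted plasma proteins, 6 apolipoproteins and 5 metabolic enzymes.

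Whole genome mRNA expression was measured in EJ/T24 cells, an established human line of invasive bladder cancer, on 6 HG-U133 Plus 2.0 arrays. Of these, 3 were from cells transfected with FOXA1 and 3 from cells given an empty plasmid (control). The sample labels give pUC19 as the empty plasmid, whereas the methods name pcDNA3 as the FOXA1 vector and only an empty vector for the control. Labels and methods also name different Lipofectamine reagents. The sources do not settle whether the groups differed in plasmid backbone as well as in FOXA1. The methods give 24 μg of DNA for each 90 mm dish at 70% confluence. The cells have wild type FGFR3 and were selected by the study for their low FOXA1. No sorting of transfected cells is described, so each array may average over cells that did and did not take up the plasmid, and in such bulk samples fewer cells of a type and less RNA per cell cannot be told apart. The methods say that the transfections were done in triplicate, with DNA given for each dish, but not whether each array had its own dish, passage or day. A p-value therefore sets a difference only against the scatter of these arrays, and that scatter may be technical.

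FOXA1, FOXA2 and FOXA3 are forkhead transcription factors that bind DNA within closed chromatin and make it accessible to other regulators. In the embryo they act with GATA factors in the endoderm, the germ layer that forms gut, liver and pancreas, and in the liver they act with HNF1, HNF4, ONECUT and C/EBP factors on the genes of plasma proteins and metabolism. The bladder lining also derives from endoderm and uses FOXA1, but does not make albumin or fibrinogen. Whether FOXA1 alone moves such genes in a bladder cancer line is the question these values address.

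The values are MAS5 signals on a linear scale, and a gene was read by its brightest probe set. Signals under 3.5, the 20th percentile of all signals, are marked as lying at the floor, where their order cannot be read. Differences are log2 signals of FOXA1 transfected cells minus those of control cells, by the group names of the labels, with the standard error from limma. The study's own table of changed genes runs the opposite way for every probe set it lists, SOX17 being the only member among them. The sources do not settle whether the group labels or the ratio of that table are turned. If the labels were, every sign below would turn, and FGB would be lower and AHSG higher in FOXA1 transfected cells. The methods describe a western blot of FOXA1 protein in part of the transfected cells, which does not bear on how the arrays were labelled. At its brighter probe set FOXA1 itself gave 38.9, 34.8 and 31.9 in the FOXA1 transfected arrays, against 21.8, 24.4 and 21.0 in the control arrays. The groups did not overlap, but the difference of 0.65 (SE 0.23) did not pass limma over all probe sets (adjusted p = 0.307). Its dimmer probe set differed by -0.54 (SE 0.64) with overlap, and the sources used here do not say whether either one reads the transfected sequence.

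The arrays and cells showed the following as a whole. The median signal was 14.4 to 17.5 in FOXA1 transfected and 12.3 to 16.1 in control arrays. ACTB, whose ratio of 3' to 5' probe sets reflects RNA quality, gave ratios of 2.10 to 2.52 in FOXA1 transfected and 1.54 to 1.92 in control arrays, without overlap. The same ratio of GAPDH was 0.898 to 0.941 in FOXA1 transfected and 0.888 to 0.905 in control arrays, and overlapped. Of 16 urothelial and epithelial markers, 6 were at or above the floor on all arrays, with KRT18, a keratin of simple epithelia, at 2358.5 to 2543.9 in FOXA1 transfected and 2080.4 to 2405.1 in control arrays. The others were KRT7, KRT8, GATA3, PPARG and the uroplakin gene UPK1B, while KRT13, KRT19 and UPK3A were under the floor on all arrays. KRT7 and UPK1B were higher without overlap (2 of 16, 12.5%, as over all genes), and UPK1B, with the smallest p of these markers, gave 30.4, 20.1 and 25.5 in FOXA1 transfected arrays, against 18.3, 16.7 and 9.6 in control arrays (difference 0.80, SE 0.35, adjusted p = 0.420). The summed signal of the 16 was 2540.3 to 2730.7 in FOXA1 transfected and 2232.4 to 2547.1 in control arrays. Differences were above 0 in 8 and below 0 in 4 of 12 measured markers of leukocyte, endothelial, muscle and nerve cells (median 0.27). Their summed signal was 124.0 to 140.2 in FOXA1 transfected and 99.8 to 119.4 in control arrays, without overlap, and none was listed at 0. Of 10 markers of liver cells other than hepatocytes, 7 were above 0 and 3 below (median 0.02), and SOX9, which marks bile duct and progenitor cells, gave 229.1, 136.9 and 112.7 in FOXA1 transfected cells, against 362.5, 285.1 and 263.7 in control cells (difference -0.98, SE 0.22, adjusted p = 0.144). With median centring the counts above and below 0 were 7 and 9 for the urothelial and epithelial markers, 6 and 6 for those of leukocyte, endothelial, muscle and nerve cells and 2 and 8 for those of other liver cells. The part of these marker levels, of the array medians and of the ACTB ratio in the results below was not tested.

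No liver or endoderm gene passed limma with Benjamini-Hochberg adjustment over all 54613 probe sets, either as higher in FOXA1 transfected cells (0 of 34, against 0.0607% of all genes) or as lower (0 of 34, against 0.0303%). The smallest adjusted p was 0.138, for FGB. The methods name SAM on RMA values. A version of SAM written here, run on the MAS5 log2 signals, passed 0 of 34 members and only 1 of all 19775 genes. At an unadjusted p under 0.05, 3 of 34 (8.82%) were higher, a share close to the 9.07% over all genes, and 0 were lower, against 5.49%. In 3 genes, FGB, EOMES and GATA6, the FOXA1 transfected arrays were all above the highest control array. That is 8.82% of the members, under the 12.5% of all genes. In 1 gene, AHSG, they were all below the lowest control array (2.94%, against 7.25% of all genes). Taken in either direction the groups did not overlap in 4 of 34 genes (11.8%), against 19.7% of all genes. By sign, 24 genes (70.6%) lay above 0 and 10 below, against 59.2% of all genes above 0. The median difference was 0.36 over the members and 0.07 over all genes. Median centring of the arrays lowered both, to 0.18 over the members and -0.11 over all genes, with 20 members above 0 and 14 below (58.8%, against 38.3% of all genes above 0).

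**Figure D1:**
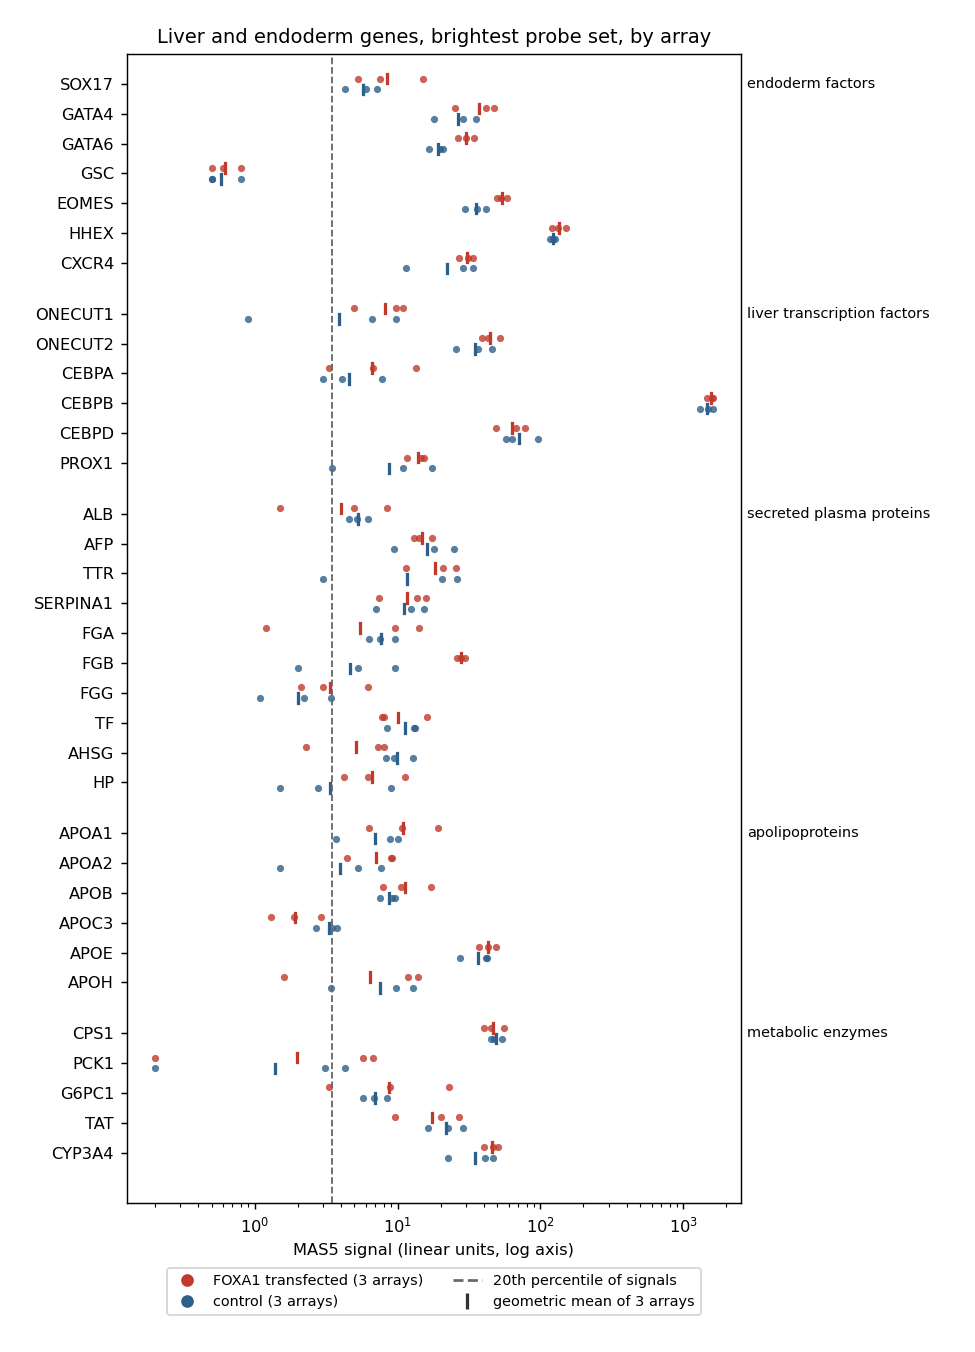
MAS5 signal on a log axis of the 34 liver and endoderm genes at the brightest probe set of each, with red points for the 3 FOXA1 transfected arrays, blue points for the 3 control arrays, short lines for geometric means and a dashed line at 3.5, the 20th percentile of all signals. The groups are apart at FGB, EOMES, GATA6 and AHSG, 19 genes lie at or above the dashed line on all 6 arrays, and GSC lies under it on all 6.

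Many of these genes gave signals near the floor in EJ/T24 cells. On all 6 arrays 19 of 34 (55.9%) were at or above the floor, against 72% of all genes, and GSC was under it on all 6, as were 3.58% of all genes. Among the 19 brighter genes 14 lay above 0 (73.7%, against 58.2% of all such genes), with a median of 0.34 against 0.05. Their groups did not overlap in 10.5%, against 23.1%. Among the 15 genes with some array under the floor 10 lay above 0 (66.7%, against 61.5%), with a median of 0.51 against 0.30. Here the groups did not overlap in 13.3%, against 11%. The same array was often the extreme one. FOXA1 transfected array 1 was the highest of the 6 in 18 genes, and control array 2, which also had the lowest median signal, was the lowest in 11. Without FOXA1 transfected array 1 the median of the members was 0.14 against 0.07 of all genes, and without control array 2 it was 0.14 against 0.03.

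**Figure D2:**
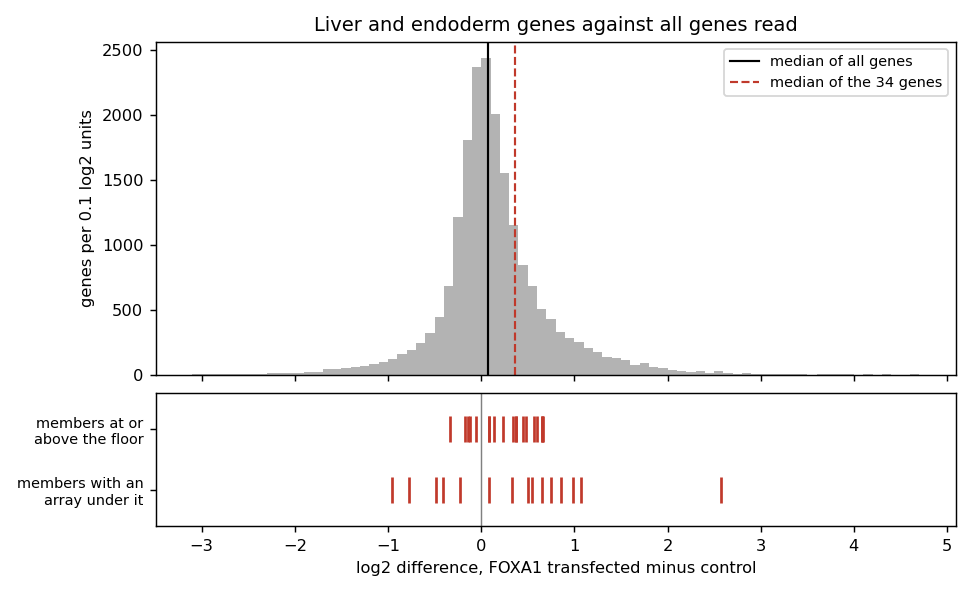
Histogram of log2 differences, FOXA1 transfected minus control, over 19775 genes (top, with solid and dashed lines at the medians of all genes and of the 34 members), and the members' own differences as ticks (bottom), split into 19 genes at or above the floor on all arrays and 15 with some array under it. The members' median of 0.36 lies right of the 0.07 of all genes, and the brighter members lie within 1 unit of 0.

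Fibrinogen, the plasma protein that thrombin turns into the fibrin of a clot, is built of alpha, beta and gamma chains encoded by FGA, FGB and FGG, which are adjacent coding genes on chromosome 4. They are transcribed together in the liver. The promoters are shown because FGB alone of the 3 had groups that did not overlap. Each run is the 250 bases before the transcription start in RefSeq's annotation of GRCh38.p14, 5′ to 3′ on the gene's own strand, at chr4:154562730-154562979 (plus strand) for FGB, chr4:154590743-154590992 (minus strand) for FGA and chr4:154612657-154612906 (minus strand) for FGG. Capitals mark matches to the forkhead letters TGTTTAC, to the variants TGTTTGC and also TATTTAC, to the C/EBP letters TTNNGCAA or to the HNF1 letters GTTAAT, on either strand.
FGB: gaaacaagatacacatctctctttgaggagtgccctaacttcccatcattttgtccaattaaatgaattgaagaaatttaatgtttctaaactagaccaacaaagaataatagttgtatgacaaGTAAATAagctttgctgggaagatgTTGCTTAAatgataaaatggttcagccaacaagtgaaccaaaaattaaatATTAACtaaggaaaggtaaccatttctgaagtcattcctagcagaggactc
FGA: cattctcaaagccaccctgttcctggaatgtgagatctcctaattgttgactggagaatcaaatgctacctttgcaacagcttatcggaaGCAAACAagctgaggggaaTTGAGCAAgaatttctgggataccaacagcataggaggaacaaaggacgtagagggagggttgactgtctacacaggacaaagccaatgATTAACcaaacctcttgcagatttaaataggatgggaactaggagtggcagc
FGG: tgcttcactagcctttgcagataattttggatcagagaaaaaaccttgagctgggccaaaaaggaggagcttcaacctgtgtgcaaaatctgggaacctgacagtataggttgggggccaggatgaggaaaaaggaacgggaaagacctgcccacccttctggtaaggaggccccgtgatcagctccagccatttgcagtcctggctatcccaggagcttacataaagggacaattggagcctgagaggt

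In the FGB promoter the forkhead match GTAAATA began 126 bases before the start, the C/EBP match TTGCTTAA 101 bases before and the HNF1 match ATTAAC 51 bases before. The FGA promoter held GCAAACA at 160, TTGAGCAA at 141 and ATTAAC at 52 bases before the start. No match of one motif overlapped a match of another in these promoters, and none of these letters were found in the FGG window. Over windows of 300 bases (250 before and 50 after the start), forkhead letters occurred in 9 of the 23 members with an entry (39.1%), against 11.5% of 27305 genes with an entry (9.57% of 35116 promoters). The 9 were AHSG, ALB, APOA2, APOH, CXCR4, FGA, FGB, G6PC1 and SERPINA1. C/EBP letters occurred in 6 of 23 (26.1%, against 12.7% of genes and 10.5% of promoters), and HNF1 letters in 8 of 23 (34.8%, against 8.27% of genes and 6.88% of promoters). All 3 motifs were found in ALB, FGA and FGB. A match of letters is a description of the sequence and not a bound site, and no entry was used for APOA1, APOB, APOC3, CEBPD, GATA4, HP, PCK1, PROX1, SOX17, TAT and TTR.

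FGB gave signals of 29.6, 25.9 and 27.7 in the FOXA1 transfected arrays, against 9.6, 5.3 and 2.0 in the control arrays. The FOXA1 transfected arrays lay close together, all above the control arrays, of which array 3 was under the floor. The log2 difference was 2.57 (SE 0.56, 95% interval 1.33 to 3.81, unadjusted p = 0.000808 and adjusted p = 0.138 from limma), and it was 2.30 with signals under 3.5 set to 3.5. An exact two-sided permutation test gave p = 0.1, the smallest that 3 arrays against 3 allow. The second FGB probe set, 204988_at, gave 15.8, 24.6 and 18.7 in FOXA1 transfected arrays, against 4.6, 5.3 and 3.1 in control arrays. It too had no overlap, with a difference of 2.20 (SE 0.49, adjusted p = 0.144), and control array 3 was under the floor here as well. FGB ranked 63 of 19775 genes by log2 difference and 167 by p. Of 5015 genes with 2 probe sets, 99 (1.97%) were higher without overlap at both, as FGB was, and 42 (0.837%) were lower without overlap at both.

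FGA gave 14.2, 1.2 and 9.6 in FOXA1 transfected arrays, against 6.3, 9.6 and 7.5 in control arrays. Its FOXA1 transfected arrays included both the highest and the lowest of the 6, and the difference was -0.49 (SE 0.86), or 0.02 with signals under 3.5 set to 3.5. The other FGA probe sets differed by 0.04 and 0.87, with signals mostly near the floor. FGG gave 2.1, 6.2 and 3.0 in FOXA1 transfected cells, against 1.1, 3.4 and 2.2 in control cells, with all control arrays and 2 FOXA1 transfected arrays under the floor. Its difference was 0.75 (SE 0.80, adjusted p = 0.775), or 0.27 with that floor. The FGB difference was thus not accompanied by one beyond array spread at FGA or FGG, whose 95% intervals of -2.39 to 1.41 and -1.01 to 2.51 are wide. The difference between the 3 genes was not tested.

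**Figure D3:**
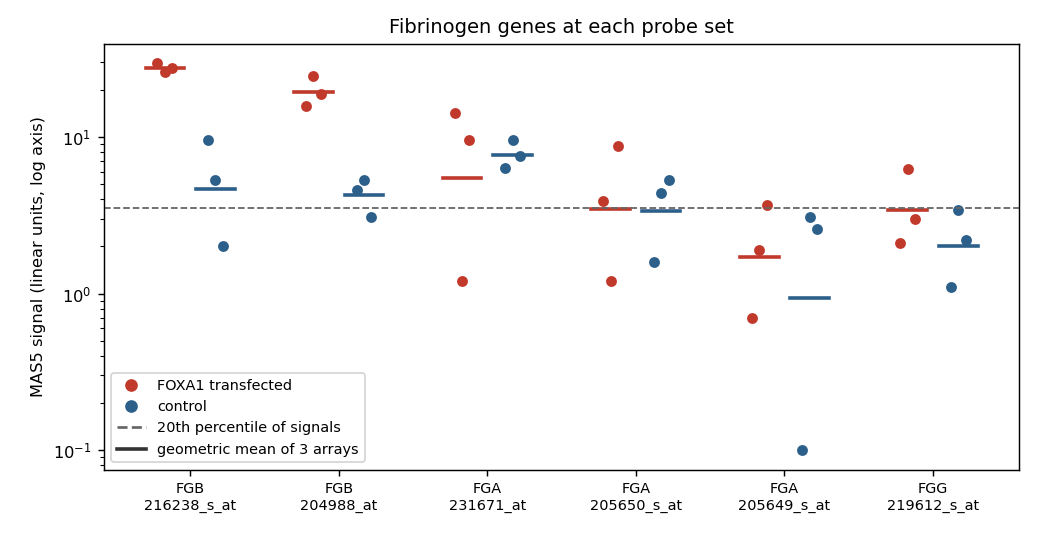
MAS5 signal on a log axis at each probe set of FGB, FGA and FGG, with points for arrays (FOXA1 transfected red, control blue), lines for geometric means and a dashed line at 3.5. At both FGB probe sets the red points lie above all blue points, while at FGA and FGG the groups overlap.

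The 7 endoderm factors had differences above 0 throughout, with a median of 0.48, though the direction of GSC cannot be read, and with median centring HHEX lay at -0.04 and 5 of 7 were above 0. None passed limma over all probe sets, and the groups did not overlap in 2 of 7 (28.6%, against 12.5% of all genes higher without overlap). Their summed signal was 273.4 to 313.8 in FOXA1 transfected and 211.0 to 260.1 in control arrays, also without overlap, as was the summed signal of the leukocyte, endothelial, muscle and nerve markers. EOMES, a T-box factor that starts endoderm formation, gave 53.2, 49.8 and 58.2 in FOXA1 transfected arrays, against 35.7, 29.8 and 41.7 in control arrays. The groups were apart by a gap smaller than the spread of the control arrays, and the difference was 0.60 (SE 0.19, unadjusted p = 0.00921, adjusted p = 0.269 from limma). GATA6, a zinc finger factor of early endoderm, gave 34.1, 26.5 and 29.9 in FOXA1 transfected arrays, against 19.9, 20.8 and 16.7 in control arrays. This difference of 0.66 (SE 0.26, adjusted p = 0.365) was not seen in the same size at its other probe set, which differed by 0.20 (SE 0.50) with overlap.

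SOX17, which drives definitive endoderm, gave 15.1, 7.5 and 5.3 in FOXA1 transfected arrays, against 4.3, 7.2 and 6.0 in control arrays. FOXA1 transfected array 1 stood above the rest and the other arrays overlapped, with a difference of 0.56 (SE 0.60). At 219993_at, the probe set that the study's table holds, the signals were 14.8, 5.6 and 10.2 in FOXA1 transfected cells, against 4.0, 1.8 and 5.0 in control cells. There the groups did not overlap and the difference was 1.52 (SE 0.68, adjusted p = 0.433). GATA4, a partner of FOXA factors in early liver, gave 47.5, 41.6 and 25.4 in FOXA1 transfected cells, against 28.7, 18.0 and 35.5 in control cells, a difference of 0.48 (SE 0.31). Of its 4 other probe sets 3 lay below 0, at -0.62, -0.69 and -0.32, and the other at 1.47. HHEX, a homeobox factor of the liver bud, gave 120.3 to 151.7 in FOXA1 transfected and 115.7 to 125.9 in control arrays, a difference of 0.14 (SE 0.12). CXCR4, the chemokine receptor used to sort endoderm cells, gave 31.0, 27.1 and 33.8 in FOXA1 transfected cells, against 28.9, 11.5 and 33.5 in control cells. Its difference of 0.45 (SE 0.37) came with a low control array 2, and its other probe sets differed by 0.14 and -1.28. GSC, a homeobox gene of the mesendoderm, gave 0.5 to 0.8 in both groups.

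The 6 liver transcription factors lay above 0 in 5 cases and below in 1, with a median of 0.44, and in none were the groups apart at the brightest probe set. ONECUT1, also known as HNF6, gave 10.9, 9.8 and 5.0 in FOXA1 transfected arrays, against 6.6, 9.8 and 0.9 in control arrays. The low control array 3 was under the floor, and the difference of 1.07 had a standard error of 0.89. ONECUT2, its relative, gave 43.0, 39.1 and 52.0 in FOXA1 transfected cells, against 45.5, 25.7 and 36.6 in control cells (difference 0.34, SE 0.24). At ONECUT2 the probe set 230271_at had all FOXA1 transfected arrays below the control arrays, 23.5 to 24.7 in FOXA1 transfected cells, against 26.4 to 29.1 in control cells, a difference of -0.21 (SE 0.23). CEBPA, the C/EBP factor that maintains hepatocytes, gave 6.7, 3.3 and 13.4 in FOXA1 transfected cells, against 4.1, 7.8 and 3.0 in control cells (difference 0.54, SE 0.72). CEBPB, the C/EBP factor of the acute phase response, gave 1459.4, 1610.3 and 1582.5 in FOXA1 transfected arrays, against 1612.9, 1304.9 and 1491.5 in control arrays. Its difference of 0.08 (SE 0.09) had a 95% interval of -0.12 to 0.28, the narrowest among the members, and it was -0.10 with median centring. CEBPD, another C/EBP factor, gave 48.6 to 78.5 in FOXA1 transfected and 57.8 to 95.4 in control arrays (difference -0.15, SE 0.23).

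PROX1, a homeobox factor needed for hepatoblasts to migrate, gave 11.7, 15.4 and 14.6 in FOXA1 transfected cells, against 11.0, 3.5 and 17.4 in control cells (difference 0.66, SE 0.59). Its probe sets went opposite ways. At 228656_at the FOXA1 transfected arrays lay above the control arrays, at 9.8 to 15.7 in FOXA1 transfected cells, against 8.0 to 9.6 in control cells (difference 0.58, SE 0.44). At 229376_at they lay below, at 0.8 to 3.0 in FOXA1 transfected cells, against 3.2 to 6.1 in control cells (difference -1.70, SE 0.80), with all FOXA1 transfected arrays under the floor.

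The 10 secreted plasma proteins were split evenly, 5 above 0 and 5 below it (median -0.02). Only 3 of 10 were at or above the floor on all arrays. Their summed signal overlapped, at 88.1 to 137.5 in FOXA1 transfected and 73.5 to 105.2 in control arrays. ALB, the gene of albumin and the usual mark of hepatocytes, gave 8.5, 1.5 and 5.0 in FOXA1 transfected arrays, against 6.2, 5.2 and 4.6 in control arrays. These values lie near the floor, and the difference was -0.41 (SE 0.76). At the ALB probe set 211298_s_at the signals were 0.3, 3.9 and 1.6 in FOXA1 transfected cells, against 7.1, 4.1 and 8.3 in control cells. The FOXA1 transfected arrays lay below at a difference of -2.34 (SE 0.97, adjusted p = 0.394), with 2 of them under the floor, while the 2 remaining ALB probe sets differed by 0.92 and 0.43. AFP, the albumin relative of fetal liver, gave 14.2, 13.1 and 17.5 in FOXA1 transfected cells, against 9.4, 18.0 and 24.9 in control cells (difference -0.12, SE 0.42). TTR, which carries thyroid hormone and retinol binding protein, gave 25.6, 11.5 and 20.9 in FOXA1 transfected cells, against 3.0, 20.4 and 26.0 in control cells. Its difference of 0.65 (SE 0.71) came with a control array 1 under the floor.

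AHSG, the gene of the plasma glycoprotein fetuin A, gave 2.3, 7.3 and 8.1 in FOXA1 transfected arrays, against 9.4, 8.3 and 12.8 in control arrays. The highest FOXA1 transfected array lay just under the lowest control array, and the difference was -0.96 (SE 0.63, adjusted p = 0.613). Without FOXA1 transfected array 1, which was under the floor, it was -0.38. SERPINA1, the antitrypsin that inhibits neutrophil elastase, gave 7.4 to 15.9 in FOXA1 transfected and 7.1 to 15.3 in control arrays (difference 0.08, SE 0.49). Like PROX1 it had probe sets apart in both directions, with 1.73 at 211428_at and -1.02 at 211429_s_at, and these lay largely under the floor. TF, the iron carrier transferrin, differed by -0.18 (SE 0.48). HP, which binds free hemoglobin, gave 11.2, 6.2 and 4.2 in FOXA1 transfected cells, against 2.8, 9.0 and 1.5 in control cells, a difference of 0.98 (SE 0.80) with 2 control arrays under the floor.

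Of the 6 apolipoproteins, the protein parts of lipoprotein particles, 4 were above 0 and 2 below (median 0.31), with overlap in each. APOA1, the main protein of high density lipoprotein, gave 19.3, 6.3 and 10.8 in FOXA1 transfected cells, against 10.1, 3.7 and 8.9 in control cells (difference 0.66, SE 0.61). This probe set is of the _x_at kind, which can bind near-identical transcripts, and with such probe sets left out APOA1 differed by -0.54. APOA2, of the same particle, gave 9.1, 9.0 and 4.4 in FOXA1 transfected cells, against 7.7, 1.5 and 5.3 in control cells (difference 0.85, SE 0.76). APOB, the large scaffold of low density lipoprotein, gave 17.2, 10.5 and 7.9 in FOXA1 transfected cells, against 7.5, 9.1 and 9.6 in control cells (difference 0.37, SE 0.48). APOE, a ligand of lipoprotein receptors that many tissues make, gave 48.8, 43.1 and 37.3 in FOXA1 transfected cells, against 41.3, 27.5 and 42.3 in control cells (difference 0.24, SE 0.22), also at an _x_at probe set. APOC3, an inhibitor of lipoprotein lipase, gave 1.3 to 2.9 in FOXA1 transfected and 2.7 to 3.8 in control arrays (difference -0.78, SE 0.73), near or under the floor. APOH, a phospholipid binding plasma protein, differed by -0.23 (SE 0.87).

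Among the 5 metabolic enzymes 3 were above 0 and 2 below (median 0.33), and the groups overlapped in all 5. CPS1, which starts the urea cycle, gave 55.5, 40.2 and 45.3 in FOXA1 transfected cells, against 53.6, 47.1 and 45.4 in control cells. Its difference of -0.06 (SE 0.18) had a 95% interval of -0.46 to 0.34. CYP3A4, the liver's main drug oxidising cytochrome, gave 40.2, 50.2 and 46.9 in FOXA1 transfected cells, against 40.9, 22.7 and 46.5 in control cells. The difference of 0.38 (SE 0.27) came with a low control array 2, and without _x_at probe sets CYP3A4 differed by -0.06. TAT, which breaks down tyrosine, differed by -0.34 (SE 0.41), also at an _x_at probe set. G6PC1, which releases glucose from its phosphate, gave 23.1, 8.8 and 3.3 in FOXA1 transfected cells, against 8.5, 6.9 and 5.7 in control cells (difference 0.33, SE 0.70). PCK1, an enzyme of glucose synthesis, gave 0.2 to 6.7 in FOXA1 transfected and 0.2 to 4.3 in control arrays, so that its difference of 0.51 had a standard error of 1.49.

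**Figure D4:**
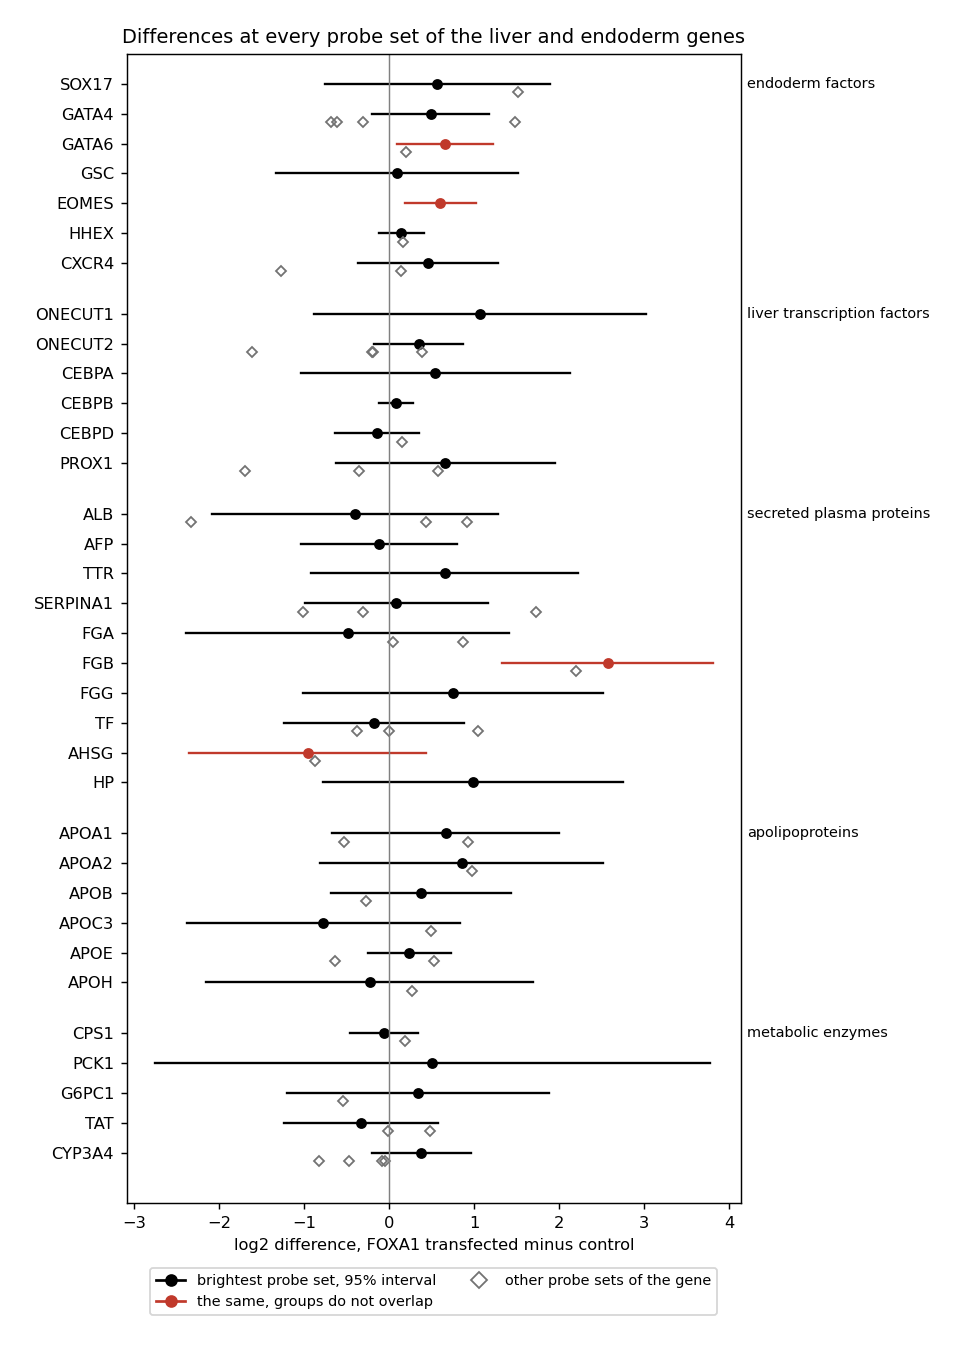
Log2 difference, FOXA1 transfected minus control, of the 34 genes at the brightest probe set (filled points with 95% intervals from limma, red where the groups do not overlap) and at each gene's other probe sets (open diamonds). The interval of FGB, from 1.33 to 3.81, lies farthest from 0, and the diamonds of ALB, PROX1, SERPINA1 and GATA4 fall on both sides of 0.

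Reading all probe sets in place of the brightest gave a smaller shift. Of 80 probe sets 46 lay above 0 (57.5%, against 58.2% of all 54613), with a median of 0.14 against 0.08. The groups did not overlap with FOXA1 transfected cells higher in 7 (8.75%, against 10.5%) and lower in 5 (6.25%, against 5.86%). None passed limma (0 of 80, against 0.0385% of all probe sets as higher and 0.0201% as lower). Only 29 of the 80 were at or above the floor on all arrays. Of 24 members with more than 1 probe set, 6 had a single sign throughout and 18 had both. The 6 were FGB, SOX17, GATA6, HHEX, AHSG and APOA2. With each gene read by the median over its probe sets, the median difference of the members was 0.11 against 0.09 over all genes.

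Genes of the same pathways that are not members were read from 4 further lists, and none of their genes passed limma over all probe sets. With median centring the shares above 0 were lower in 3 of the 4 lists, at 10 of 18, 17 of 31 and 16 of 28, and 10 of 16 in the other. The share over all genes fell as well, from 59.2% to 38.3%. Of 18 other liver transcription factors measured, the transfected FOXA1 among them, 12 lay above 0 and 6 below (median 0.25). The groups did not overlap in 4 (22.2%, against 12.5% of all genes), FOXA1 itself, FOXA2, XBP1 and CREB3L3, all higher in FOXA1 transfected cells, and in 1 of the 18 with median centring. FOXA2, the paralog with the largest role in early endoderm, gave 14.2, 14.3 and 19.6 in FOXA1 transfected arrays, against 3.5, 1.3 and 3.8 in control arrays. The groups were apart, with a difference of 2.62 (SE 0.63, adjusted p = 0.166) and 1 control array under the floor, and its other probe sets, mostly under the floor, differed by 0.45 and -0.38. ATF5, a factor of hepatocyte maturation, differed by 0.51 (SE 0.20) and CEBPG, a C/EBP partner, by -0.28 (SE 0.12), both with overlap.

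Of 16 other endoderm and mesendoderm genes, 10 lay above 0 and 6 below (median 0.50). TBXT, the T-box factor of the primitive streak, gave 18.8, 18.1 and 6.8 in FOXA1 transfected cells, against 30.9, 25.8 and 34.9 in control cells. The FOXA1 transfected arrays were all lower (difference -1.20, SE 0.41, adjusted p = 0.296). CER1, a secreted Nodal antagonist of endoderm, gave 15.7 to 16.1 in FOXA1 transfected and 7.7 to 13.2 in control arrays (difference 0.67, SE 0.40). KIT differed by 1.22 (SE 0.67) and GATA3 by 0.95 (SE 0.49), with overlap.

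Of 31 other secreted hepatocyte proteins, 20 lay above 0 and 11 below (median 0.22). In 2 (6.45%, under the 12.5% of all genes) the groups did not overlap, with FOXA1 transfected cells higher. These were APOA4, an apolipoprotein of gut and liver, and HPX, the heme carrier hemopexin. APOA4 gave 17.2, 10.6 and 10.3 in FOXA1 transfected cells, against 6.9, 2.4 and 2.6 in control cells (difference 1.82, SE 0.63, adjusted p = 0.304), with 2 control arrays under the floor. HPX gave 60.2, 38.2 and 48.1 in FOXA1 transfected cells, against 28.5, 31.8 and 38.1 in control cells (difference 0.56, SE 0.22), with control array 3 just under the lowest FOXA1 transfected array. HAMP, the iron hormone hepcidin, differed by 0.73 (SE 0.40) and FGL1, a fibrinogen related protein of hepatocytes, by 0.50 (SE 0.30).

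Of 28 other hepatocyte metabolic genes, 21 lay above 0 and 7 below (median 0.38). In 7 of 28 (25%, against 12.5% of all genes) the groups did not overlap, with FOXA1 transfected cells higher. With median centring 5 of 28 were higher and 1 lower without overlap, against 13.7% of all genes in either direction. Of the 7 only CYP8B1 was at or above the floor on all arrays. HPD was under it on all arrays, at 1.4 to 1.7 in FOXA1 transfected and 0.8 to 1.1 in control arrays, so its order cannot be read. Also among the 7, TTPA, the vitamin E transfer protein, gave 10.6, 10.5 and 14.8 in FOXA1 transfected cells, against 1.9, 6.0 and 3.6 in control cells (difference 1.78, SE 0.62). ADH1B, an alcohol dehydrogenase, gave 9.6, 9.2 and 4.2 in FOXA1 transfected cells, against 2.4, 1.6 and 1.5 in control cells, so that its control arrays were all under the floor. TDO2, which opens the ring of tryptophan, differed by 2.16 (SE 0.82), with 2 control arrays under the floor. CYP7A1, the rate-limiting enzyme of bile acid synthesis, differed by -2.49 with overlap and with all FOXA1 transfected arrays under the floor. Only 9 of the 28 were at or above the floor on all arrays.

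Across the settings tried, FGB differed by 1.96 to 3.09, EOMES by 0.42 to 0.72, GATA6 by 0.43 to 0.75 and AHSG by -1.29 to -0.38. In 11 of the 34 genes, these 4 included, the sign was the same under every setting that gave a value, and in 23 it was not. The other 7 were SOX17, ONECUT1, CEBPA, FGG, HP, APOA2 and APOB.

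**Figure D5:**
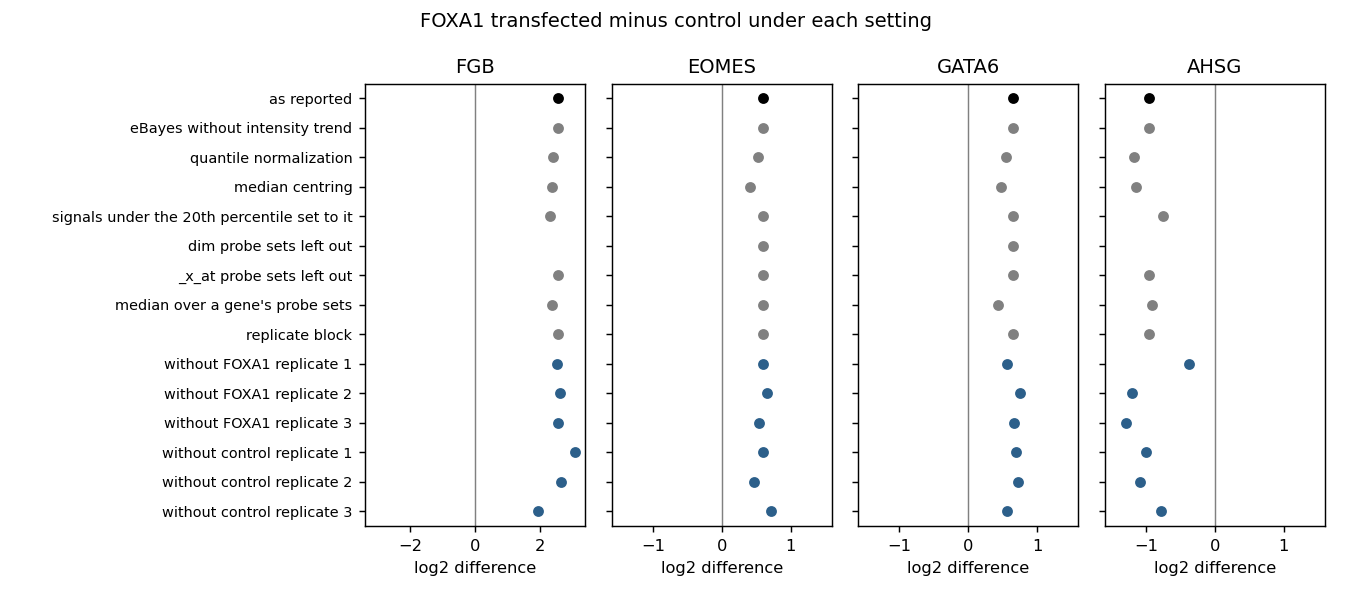
Log2 difference, FOXA1 transfected minus control, of FGB, EOMES, GATA6 and AHSG as reported (black), under other processing (grey) and with 1 array left out (blue). FGB stays between 1.96 and 3.09 and AHSG moves the most relative to its size, to -0.38 without FOXA1 transfected array 1. FGB and AHSG have no point with dim probe sets left out, since the geometric mean of both lies at or under the median over probe sets.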

How the data were processed

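Signals were taken as deposited by the authors, as an intensity for each probe set and array on a linear scale from MAS5, scaled so that the mean without the top and bottom 2% is equal between arrays. The methods go on to RMA log2 values and SAM, and these signals lack the RMA step. The 62 array controls were left out, and 25 zeros were set to 0.1 before log2. Groups came from the sample labels. Limma 3.58.1 in R 4.3.3 (lmFit, eBayes with intensity trend, two-sided) was used with Benjamini-Hochberg adjustment over 54613 probe sets and a threshold of 0.05. It was tested on simulated data. Of these probe sets 41091 carry 1 symbol, 41037 of them matched by Entrez number, 1801 carry several and 11721 none, which leaves them unnamed here. The number of arrays (3 for each group) limits the precision.

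Named genes are every member, FOXA1, and up to 4 genes of each other list with the smallest p. FOXA2 falls under its list, and the other genes and probe sets named were picked after their values were seen. Members and lists were chosen with earlier results of these data known. Alternatives were SAM (written here, 20 relabelings), eBayes without the trend, quantile normalization, median centring, a floor at 3.5, leaving out dim (geometric mean signal at or under 13.5) or _x_at probe sets, the median over probe sets, a block on the replicate number, and leaving out 1 array at a time. Promoters came from RefSeq (GRCh38.p14), with 23 of 34 members matched. For FGB, with 2 promoters listed, the first was used.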

Additional observations from a re-analysis of the deposited data

How the results depend on the processing

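The number of liver and endoderm genes passing the threshold was 0 in every setting tried. Few genes of any kind passed in some of these settings, where 0 members says little. Of all 19775 genes 0 passed without the intensity trend, 1 by SAM and 4 with median centring. The most, 95 of 12095, passed with dim probe sets left out. The smallest adjusted p ran from 0.0967 with the replicate block to 0.711 by SAM, both for FGB. The counts of genes without overlap and the medians were as follows. Genes without overlap numbered 2 of 14 with dim probe sets left out (25.1% of all genes there), and 5 to 11 with 1 array left out, the most without FOXA1 transfected array 3 (11) and FOXA1 transfected array 1 (8), where fewer arrays make overlap rarer (26.6% to 35.5% of all genes). The other settings gave 4 or 5. The median of the members was 0.21 with quantile normalization (22 above 0, 12 below) and 0.18 with median centring (20 above, 14 below), where the median of all genes was 0.02 and -0.11. Leaving out 1 array gave 0.14 to 0.41. Of 456 values of single members under other settings 407 kept their sign and 49 did not, none of them past the threshold. The 407 overstate how stable the signs are, since some settings could not change a sign. Dropping the intensity trend or adding the replicate block leaves each difference as it was. Leaving out dim or _x_at probe sets does so wherever the gene is still read by the same probe set.

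The replicate numbers were not taken to pair the arrays, since the labels give no shared origin and not every pair's deviations from the group means correlated above 0.1. These correlations were 0.00218, 0.0381 and 0.011 over all probe sets, and 0.0503, 0.182 and 0.111 with dim probe sets left out. Each array correlated best with its own number in 2 of 6 cases over all probe sets and in 6 of 6 over the brighter ones, a hint from the data and not the design. The replicate block called 0 members and 48 of all genes, against 18 without it. Precision at the floor of 3.5 is limited, since 15 of 34 genes had an array under it.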
